A study of Mus musculus with 6 samples.

Results

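The 36 genes described here encode transporters and enzymes of glycolysis, of the pyruvate dehydrogenase step and of the pentose phosphate pathway. They were taken by gene symbol from a list drawn up with earlier results of these data known, and all 36 are among the 24421 symbols that the count tables list. The measurements come from polyadenylated RNA of liver sinusoidal endothelial cells, or LSECs, the endothelial cells whose open pores make the liver's smallest vessels leaky, taken from mice as primary cells. In the HP group (3 samples), LSECs were loaded for 8 h with hydrostatic pressure, which went up and down at 0.01 Hz from 101 kPa to 135 kPa in absolute terms. The control group (3 samples) is titled a control. Both groups carry 1 protocol text, in which the cells were plated overnight on collagen I and kept 6 h without serum before the pressure. How the controls spent the 8 h, and if in the same apparatus, is not labelled, so culture time and handling cannot be told apart from pressure. All 6 samples share the tissue label liver, the genotype label wild and 1 batch label, and the cells were picked with beads against CD146, a surface protein that other endothelium carries too. The labels leave unsaid if each sample was its own animal or culture, so every p-value below measures the spread among these libraries alone, and that spread may be technical.

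Glycolysis breaks glucose down to pyruvate in the cytosol. Hexokinase traps the sugar inside the cell, phosphofructokinase commits it to breakdown, and the lower enzymes recover ATP. Pyruvate is then reduced to lactate by lactate dehydrogenase or enters the mitochondrion, where the pyruvate dehydrogenase complex feeds it to the tricarboxylic acid cycle. Pyruvate dehydrogenase kinases switch that complex off and its phosphatase switches it on. The pentose phosphate pathway branches off after hexokinase and yields NADPH and ribose. Endothelial cells are known to draw most of their ATP from glycolysis, and PFKFB3 is known to drive that flux during vessel sprouting. Many glycolysis genes are textbook targets of the transcription factors HIF-1 and MYC.

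The libraries held between 12922959 and 18655749 counts, of which the 36 genes together took between 0.792% and 0.945%. The filter on low counts left 12892 genes to test. Levels are given as CPM, counts relative to a library total that was scaled by its TMM factor, and a fold change is HP over control on the log2 scale with its standard error, from edgeR's quasi-likelihood test. A rise or fall given as a number is such a log2 fold change, and a mean level carries its SD over 3 samples. An adjusted p is Benjamini-Hochberg adjusted over all 12892 genes, and a gene is called where that p is under 0.05. HP replicate 3 correlated less with the other HP libraries (0.9868 and 0.9894 over log CPM) than these did with each other (0.9941). All 10 LSEC markers looked for were measured. Their summed level was 3057 to 3375 CPM in HP samples and 5019 to 5185 CPM in control samples, and 7 of them fell while 0 rose. Pan-endothelial markers summed to 5106 to 5515 CPM in HP and 4987 to 5227 CPM in control. Markers of Kupffer cells and macrophages were high in every library, at 5359 to 5819 CPM in HP and 5617 to 6176 CPM in control, with none of the 10 at 0. Of these, Cd5l (-0.44 ± 0.064) and Vsig4 (-0.57 ± 0.095) fell, Csf1r (0.39 ± 0.087) and Marco (0.21 ± 0.070) rose, and 6 were not called. Hepatocyte markers were low, at 17.0 to 21.3 CPM in HP and 10.6 to 14.1 CPM in control. Stellate cell and mural markers summed to 164 to 182 CPM in HP and 148 to 158 CPM in control, most of it Dcn (132 ± 4.76 CPM in HP and 104 ± 3.85 CPM in control), which rose, while Acta2 and Des, both under 6 CPM, fell and the other 6 tested were not called. Cholangiocyte markers summed to 9.22 to 12.1 CPM in HP and 5.22 to 5.28 CPM in control, and lymphocyte markers to 1.88 to 2.99 CPM in HP and 2.31 to 3.997 CPM in control. Of 8 erythroid markers, the 4 beta-globin genes were at 0. In such bulk samples, fewer cells of a type and less RNA per cell cannot be told apart, and the part that the cell mixture plays in the results below was not tested.

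The HP samples had more mRNA for the glucose transporter Slc2a1, for the hexokinases Hk1 and Hk2 and for 5 of 6 lower glycolysis genes. They had less mRNA for 2 of 3 phosphofructokinase subunits and for the pyruvate dehydrogenase kinases Pdk1 and Pdk2. Of 6 pentose phosphate genes 4 were lower and 1, Pgd, was higher, and 3 of the 4 (G6pdx, Tkt and Rpia) lost their call when single samples were left out. Of the 36 genes, 35 could be tested and 27 were called, which is 77.1%, against 68.8% of all genes tested. Higher in HP were 16 members (45.7%, against 33.7% of all genes) and lower were 11 (31.4%, against 35.1%). The groups differed at most genes, so a called member is no rarity in these data. With a change of at least 1.5-fold required as well, 8 members were higher and 5 lower, against 20.8% and 24.6% of all genes. The HP and control samples did not overlap for 28 of the 35, with 16 members above and 12 below, while 71.9% of all genes were free of overlap, 34.9% with HP above and 37% with HP below. The median log2 fold change of the 35 was 0.117, against -0.015 over all genes, and the members ranged from -1.643 for Pdk2 to 2.947 for Hk2. Without HP replicate 3, the library that stood apart, 29 members were called, 16 higher and 13 lower, and the share called of all genes was larger too, at 74.3% (36.4% higher and 37.8% lower). Without HP replicate 1 the members' median was 0.046, against -0.012 over all genes. The count of lower members was 7 without HP replicate 2 and 6 without control replicate 2, with 31.8% and 31.6% of all genes lower. The aldolase gene Aldoc was the member left untested, with 0, 2 and 0 counts in HP samples and 4, 5 and 2 counts in control samples.

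**Figure D1:**
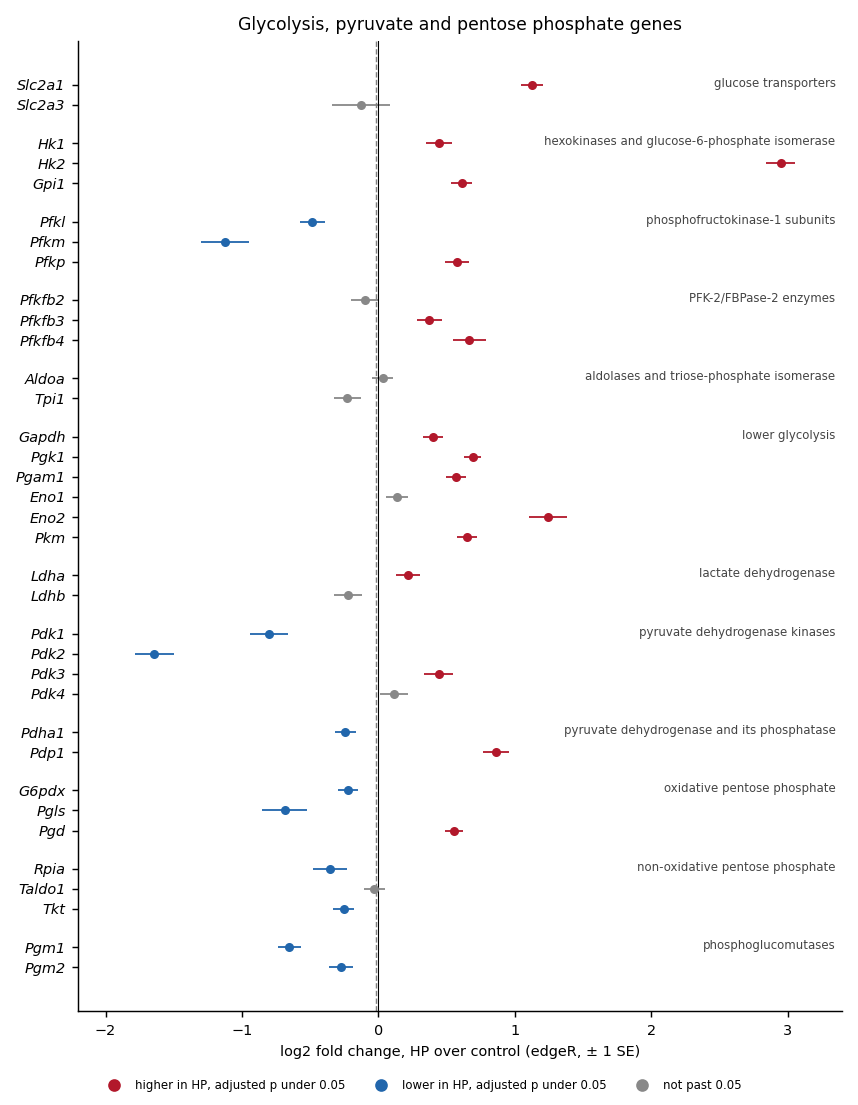
Log2 fold change, HP over control, of the 35 tested members with 1 standard error to each side, ordered by role. The dashed line marks the median of all genes tested at -0.015. Hk2 lies at 2.95 and Pdk2 at -1.64, and the roles from hexokinase to pyruvate kinase hold most of the members called higher (red).

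The upstream sequences of the 3 members with the largest rise and the 3 with the largest fall are printed here because they let a reader compare promoters of genes that moved in opposite directions. Each lies before the most upstream RefSeq start of its gene and ends no later than the annotated gene start (RefSeq, build GRCm38.p6), is written 5′ to 3′ on the gene's own strand, and carries in capitals each ACGTG or GCGTG found on either strand, the core letters that HIF proteins are known to bind. The window before Hk2 is chr6:82774455-82774704 on the minus strand, and that before Eno2 is chr6:124769674-124769923 on the minus strand. The window before Slc2a1 is chr4:119108495-119108710 on the plus strand. It is cut at the gene start to 216 bases and shows 1 of the 2 matches in its full 250 bases. Among the genes that fell, the window before Pdk2 is chr11:95041372-95041621 on the minus strand. That before Pfkm is chr15:98092339-98092588 and that before Pdk1 is chr2:71872974-71873223, both on the plus strand. Pdk2, Pfkm and Pdk1 also have RefSeq starts further downstream, and which start these cells used was not tested.
Hk2: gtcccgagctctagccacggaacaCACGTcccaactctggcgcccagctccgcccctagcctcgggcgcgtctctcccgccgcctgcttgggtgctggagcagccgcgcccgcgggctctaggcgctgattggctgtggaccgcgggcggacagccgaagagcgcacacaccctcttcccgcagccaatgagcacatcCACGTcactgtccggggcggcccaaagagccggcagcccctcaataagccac
Eno2: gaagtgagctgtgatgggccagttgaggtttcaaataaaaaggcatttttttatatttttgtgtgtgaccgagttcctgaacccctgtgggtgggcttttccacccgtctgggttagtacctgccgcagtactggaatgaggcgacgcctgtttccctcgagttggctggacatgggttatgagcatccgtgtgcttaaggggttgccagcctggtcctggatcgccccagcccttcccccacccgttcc
Slc2a1: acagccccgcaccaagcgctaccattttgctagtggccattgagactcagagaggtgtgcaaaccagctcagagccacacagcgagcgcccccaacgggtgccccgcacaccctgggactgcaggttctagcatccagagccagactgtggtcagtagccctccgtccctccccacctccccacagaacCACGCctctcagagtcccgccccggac
Pdk2: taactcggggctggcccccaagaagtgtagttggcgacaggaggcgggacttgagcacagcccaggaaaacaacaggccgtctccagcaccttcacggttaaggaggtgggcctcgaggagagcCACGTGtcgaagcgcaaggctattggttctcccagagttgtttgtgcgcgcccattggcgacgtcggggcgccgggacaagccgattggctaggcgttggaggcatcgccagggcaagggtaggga
Pfkm: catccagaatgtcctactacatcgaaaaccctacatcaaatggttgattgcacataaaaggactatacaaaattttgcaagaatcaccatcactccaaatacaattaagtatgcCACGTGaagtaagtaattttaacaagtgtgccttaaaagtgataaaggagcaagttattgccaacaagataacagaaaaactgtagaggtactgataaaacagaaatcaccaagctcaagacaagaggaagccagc
Pdk1: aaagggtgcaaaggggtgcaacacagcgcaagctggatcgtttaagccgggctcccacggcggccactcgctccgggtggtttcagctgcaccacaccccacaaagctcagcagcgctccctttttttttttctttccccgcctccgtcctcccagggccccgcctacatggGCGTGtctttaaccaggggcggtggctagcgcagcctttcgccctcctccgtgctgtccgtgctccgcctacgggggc
In Pdk2 and Pfkm a match lies inside CACGTG, the palindromic E-box core that MYC is known to bind, where both strands hold ACGTG. The letters ACGTG or GCGTG occurred in 39 of 49 RefSeq windows of 250 bases before a start of 32 matched members (79.6%), against 38.6% of 32851 windows over the genome. GGGCGG, the GC box, occurred in 51.0% of the members' windows and 32.7% of all windows, so the members' upstream windows are also richer in another motif made of G and C. Counted per gene, 29 of the 32 matched members (90.6%) held ACGTG or GCGTG in at least 1 window. With so few members without them, these letters could not separate the directions. The same share per gene over the genome was not counted. Of members with a window, 13 of 15 called higher, 9 of 9 called lower and 6 of 7 not called held ACGTG or GCGTG in at least 1 window, and those without were Eno2, Gpi1 and Tpi1. A match is a run of letters and no measured binding site.

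Of the glucose transporter genes among the members, Slc2a1 rose and Slc2a3 was not called. Slc2a1 encodes GLUT1, the main glucose transporter of endothelium, and lies on chromosome 4 from 119108711 to 119137983 (GRCm38, GENCODE M21). It stood at 114, 103 and 103 CPM in HP samples and at 49.9, 50.6 and 46.4 CPM in control samples. Every HP sample was above every control sample by about the same margin, a log2 fold change of 1.13 ± 0.081 (adjusted p = 1.02e-06). Slc2a3 encodes GLUT3, a high-affinity transporter best known from neurons. It had 2.56, 2.86 and 1.88 CPM in HP samples and 2.95, 2.77 and 2.31 CPM in control samples, so the groups overlapped (log2 fold change -0.13 ± 0.21, adjusted p = 0.60). Per kilobase of exon, Slc2a1 held 98.9% ± 0.225 of the summed level of this pair in HP and 97.4% ± 0.213 in control (SD, n = 3 each).

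The hexokinases gave the largest change among the 36 genes. Hk2 encodes hexokinase II, the inducible isoform of muscle, fat and growing cells, and lies on chromosome 6 from 82725025 to 82774454. Its level was 216, 194 and 172 CPM in HP samples, against 25.9, 26.5 and 22.9 CPM in control samples. The lowest HP sample lay far above the highest control sample. The fitted change was 7.71-fold, a log2 fold change of 2.95 ± 0.11 (adjusted p = 3.73e-08), at the 99.3rd percentile of all genes tested. Hk1 encodes the constitutive isoform. It stood at 185, 152 and 146 CPM in HP samples and at 124, 120 and 112 CPM in control samples, a smaller rise of 0.44 ± 0.098 (adjusted p = 0.00219) with no overlap. Per kilobase, Hk2 made up 62.5%, 64.6% and 62.7% of the summed Hk1 and Hk2 level in HP samples, against 23.0%, 24.0% and 22.6% in control samples. The more abundant isoform of this pair was therefore Hk2 in each HP sample and Hk1 in each control sample, and their summed level was 51.3 ± 6.00 CPM per kilobase in HP and 18.1 ± 1.02 CPM per kilobase in control (SD, n = 3 each). Hk3, a hexokinase outside the 36 genes, is in neither these shares nor this sum. It stood at 21.9 ± 0.855 CPM per kilobase in HP and 41.6 ± 2.84 in control, above Hk1 and Hk2 in each control sample. The shares and the sum thus describe the pair and not all hexokinases. Gpi1, the isomerase that turns glucose-6-phosphate into fructose-6-phosphate, stood at 409, 387 and 381 CPM in HP samples and at 269, 266 and 237 CPM in control samples. It rose by 0.61 ± 0.075 (adjusted p = 3.91e-05), and 11.5% of its exonic bases overlap Gm26762 on the opposite strand.

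**Figure D2:**
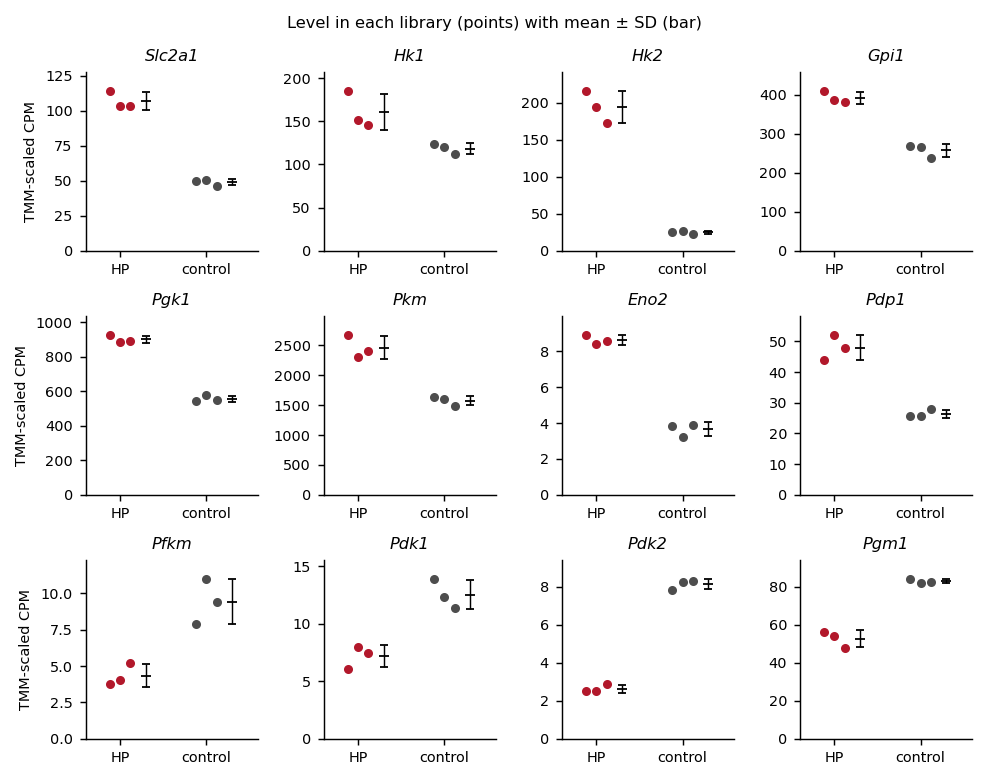
TMM-scaled CPM of 12 members in each library, with HP samples (red) left of control samples (grey), and mean ± SD over 3 samples as a bar beside the points. In every panel the groups are free of overlap, with Hk2 at 172 to 216 CPM in HP and 22.9 to 26.5 CPM in control as the widest separation.

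At phosphofructokinase, the commitment step, the 3 subunit genes went in different directions. The muscle-type subunit Pfkm, on chromosome 15 from 98092589 to 98132451, had 3.80, 4.01 and 5.24 CPM in HP samples and 7.89, 10.99 and 9.38 CPM in control samples. All HP samples lay below all control samples, and the log2 fold change was -1.13 ± 0.18 (adjusted p = 2.1e-04). Of the exonic bases of Pfkm, 10.2% overlap Gm26513 on the same strand. The liver-type subunit Pfkl stood at 42.5, 35.9 and 36.2 CPM in HP samples and at 54.0, 54.8 and 51.9 CPM in control samples, a log2 fold change of -0.49 ± 0.091 (adjusted p = 7.32e-04). The platelet-type subunit Pfkp rose instead. It had 42.9, 45.4 and 39.7 CPM in HP samples, against 29.8, 28.5 and 27.9 CPM in control samples (0.57 ± 0.089, adjusted p = 2e-04). Per kilobase of exon, Pfkl stayed the most abundant subunit, with 56.0% ± 3.03 of the summed level in HP and 61.8% ± 1.82 in control. Pfkp held 31.2% ± 2.39 in HP and 16.5% ± 0.972 in control, and Pfkm 12.8% ± 2.65 in HP and 21.7% ± 2.78 in control (SD, n = 3 each). Per kilobase, Pfkp thus exceeded Pfkm in each HP sample and Pfkm exceeded Pfkp in each control sample. That order rests on exon models of 13401 bases for Pfkp and 3340 bases for Pfkm: in shares of CPM without length, Pfkp held 50.1% in HP and 31.3% in control and exceeded Pfkm in both. The place of Pfkl as the most abundant subunit in HP rests on length as well, since without it Pfkl held 44.8% in HP, below Pfkp in each HP sample, and 58.4% in control. The summed level of the 3 subunits was 10.2 ± 0.431 CPM per kilobase in HP and 12.99 ± 0.550 CPM per kilobase in control.

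The PFKFB enzymes make and remove fructose-2,6-bisphosphate, the strongest activator of phosphofructokinase. Pfkfb3, the isoform with the highest kinase activity, stood at 118, 121 and 101 CPM in HP samples and at 92.7, 82.0 and 88.3 CPM in control samples, a rise of 0.37 ± 0.090 (adjusted p = 0.00383). Pfkfb4 had 16.2, 15.7 and 13.1 CPM in HP samples, against 10.3, 9.07 and 9.05 CPM in control samples, and rose by 0.67 ± 0.12 (adjusted p = 6.52e-04). Both were free of overlap between the groups. Pfkfb2, the heart-type isoform, had 25.7, 27.1 and 24.4 CPM in HP samples and 29.7, 25.3 and 27.9 CPM in control samples, which overlapped (-0.10 ± 0.098, adjusted p = 0.375). Of the exonic bases of Pfkfb2, 17.4% overlap Gm29427 on the same strand. Pfkfb3 was the main isoform in both groups, with 69.3% ± 0.432 of the summed level per kilobase in HP and 66.8% ± 0.421 in control (SD, n = 3 each). With library totals in place of TMM factors, Pfkfb3 was no longer called (0.16, adjusted p = 0.129).

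**Figure D3:**
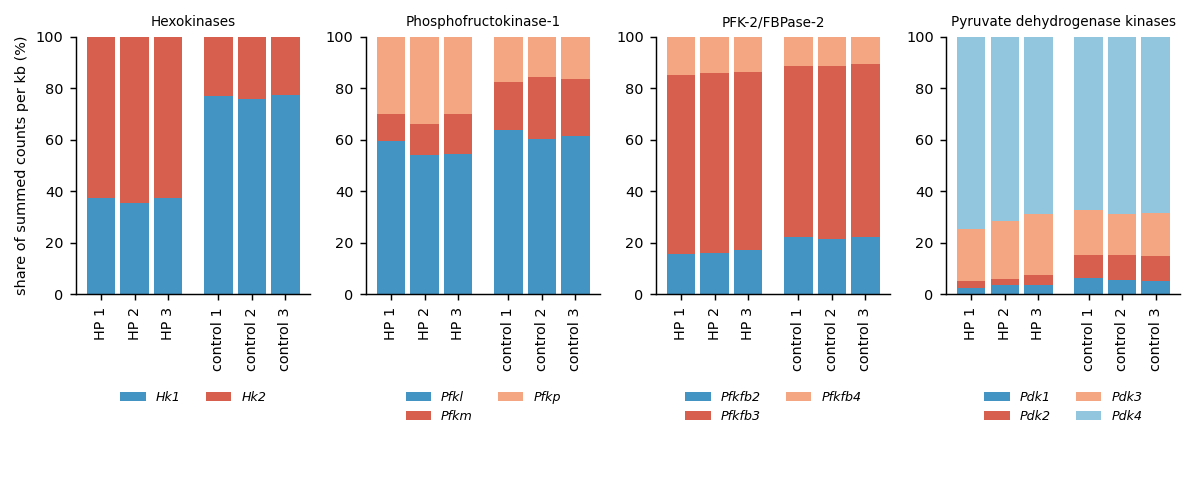
Share of each isoform in the summed level per kilobase of its family (%), per library, with HP samples left of control samples. Hk2 takes 62.5% to 64.6% of the hexokinase bar, which holds Hk1 and Hk2 but not Hk3, in HP samples and 22.6% to 24.0% in control samples. Pdk4 stays the main pyruvate dehydrogenase kinase in all 6 libraries.

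The splitting of the hexose was the step with no call. Aldoa, the main aldolase, averaged 888 ± 50.8 CPM in HP and 868 ± 68.8 CPM in control (log2 fold change 0.03 ± 0.077, adjusted p = 0.719). Tpi1, which interconverts the triose phosphates, averaged 76.6 ± 9.15 CPM in HP and 89.6 ± 5.02 CPM in control (-0.23 ± 0.097, adjusted p = 0.0569). Tpi1 sat at the edge of the threshold. It was called lower in 6 of 17 alternative analyses, among them that without HP replicate 3 (-0.32, adjusted p = 4.85e-04) and that with library totals as the scale (-0.44, adjusted p = 0.00246). The others were upper-quartile factors, no low-count filter, a minimum mean of 5 CPM and limma-voom.

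From Gapdh to Pkm, 5 of 6 members rose and 0 fell, where 33.7% of all genes tested were higher and 35.1% lower. Pgk1, the first ATP-yielding enzyme, lies on chromosome X from 106187100 to 106203699 and stood at 926, 885 and 891 CPM in HP samples, against 546, 577 and 550 CPM in control samples. Its rise of 0.69 ± 0.062 (adjusted p = 4.23e-06) came with no overlap. Pkm, which encodes the muscle-type pyruvate kinases, had 2672, 2303 and 2405 CPM in HP samples and 1631, 1599 and 1485 CPM in control samples (0.65 ± 0.072, adjusted p = 1.93e-05). Counts per gene do not tell its splice forms PKM1 and PKM2 apart. Gapdh, which oxidises glyceraldehyde-3-phosphate and often serves as a reference gene, averaged 1030 ± 39.8 CPM in HP and 782 ± 64.8 CPM in control, a rise of 0.40 ± 0.074 (adjusted p = 7.25e-04). The mutase Pgam1 averaged 318 ± 14.4 CPM in HP and 214 ± 9.996 CPM in control and rose by 0.57 ± 0.072 (adjusted p = 4.79e-05).

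The enolases differed. Eno2, neuron-type enolase, was low in all libraries, with 8.91, 8.39 and 8.60 CPM in HP samples and 3.85, 3.20 and 3.90 CPM in control samples. It rose by 1.24 ± 0.14 (adjusted p = 2.01e-05) with no overlap. Eno1, the ubiquitous enolase, had 198, 184 and 210 CPM in HP samples and 184, 186 and 167 CPM in control samples, and the groups overlapped (0.14 ± 0.080, adjusted p = 0.148). Eno2 held 4.78% ± 0.260 of the pair's summed level per kilobase in HP and 2.29% ± 0.337 in control (SD, n = 3 each). That sum leaves out Eno1b, a copy of Eno1, so the share of Eno2 among all enolase reads was smaller. Eno1b stood at 143 CPM per kilobase in HP and 130 in control, against 36.6 and 33.3 for Eno1. Several of these genes have near-identical copies, and how shared reads were assigned is not given in the sources used here. Of all stretches of 101 bases, the read length, in their transcripts, 51.6% for Pgk1, 33.9% for Pgam1, 20.8% for Gapdh and 12.1% for Pkm also occur in transcripts of other genes. For Eno1 the share is 20.3%, chiefly with its copy Eno1b, which averaged 268 ± 16.4 CPM in HP and 244 ± 15.1 CPM in control and was likewise not called. The level of such a gene is therefore uncertain. For Hk2, Eno2, Pdk1 and Pdk2 the share is 0.0%.

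At the lactate step the 2 subunit genes lay close to the threshold. Ldha, whose product favours lactate, averaged 335 ± 29.7 CPM in HP and 288 ± 23.2 CPM in control and rose by 0.22 ± 0.088 (adjusted p = 0.0464). The call was lost in 12 of 17 alternative analyses and held without HP replicate 1. Without HP replicates 2 and 3, each left out alone, its adjusted p was 0.0752 and 0.0593, and without control replicates 1, 2 and 3 it was 0.0756, 0.0674 and 0.206. Ldhb, whose product favours pyruvate, averaged 18.0 ± 1.86 CPM in HP and 21.0 ± 0.468 CPM in control, with every HP sample below every control sample and an adjusted p of 0.076 (-0.23 ± 0.10). It was called lower without HP replicate 3 (-0.30, adjusted p = 0.0122). Ldha held 89.8% ± 0.738 of the summed level per kilobase in HP and 86.6% ± 0.767 in control (SD, n = 3 each).

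The pyruvate dehydrogenase kinases, which close the entry of pyruvate into the mitochondrion, went apart. Pdk2, the most widely expressed isoform across tissues, lies on chromosome 11 from 95026258 to 95041354 and had 2.49, 2.49 and 2.87 CPM in HP samples, against 7.84, 8.27 and 8.32 CPM in control samples. This was the largest fall among the members, at -1.64 ± 0.14 (adjusted p = 3.88e-06), and at the 4.6th percentile of all genes tested. Pdk1, on chromosome 2 from 71873224 to 71903858 and a textbook HIF-1 target, had 6.11, 8.02 and 7.45 CPM in HP samples and 13.9, 12.3 and 11.4 CPM in control samples, a log2 fold change of -0.81 ± 0.14 (adjusted p = 4.39e-04). Pdk1 thus lay below control in all HP samples while Slc2a1, Hk2 and Pgk1, other textbook targets of HIF-1, lay above it. Pdk3 rose by 0.44 ± 0.10 (adjusted p = 0.00311), with 16.0, 16.8 and 15.4 CPM in HP samples and 12.5, 11.2 and 11.9 CPM in control samples, a call that library totals as the scale did not give (0.23, adjusted p = 0.0794). Pdk4, the isoform that fasting induces in muscle and liver, had 80.6, 74.3 and 60.6 CPM in HP samples and 66.1, 66.7 and 66.2 CPM in control samples. Its HP samples spread to both sides of the control samples (0.12 ± 0.10, adjusted p = 0.328), and without HP replicate 3 it was called higher (0.23, adjusted p = 0.00827). Pdk4 dominated the family, with 71.6% ± 2.96 of the summed level per kilobase in HP and 68.2% ± 0.813 in control, and the family's summed level was 28.5 ± 2.98 CPM per kilobase in HP and 27.7 ± 0.221 CPM per kilobase in control (SD, n = 3 each). Pdk2 held 2.94% ± 0.575 of it in HP and 9.29% ± 0.372 in control, and Pdk1 held 3.28% ± 0.656 in HP and 5.81% ± 0.547 in control.

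On the side that opens this entry, Pdp1, the phosphatase catalytic subunit that reactivates pyruvate dehydrogenase, lies on chromosome 4 from 11958184 to 11966452. It had 43.9, 52.1 and 48.0 CPM in HP samples, against 25.7, 25.6 and 27.9 CPM in control samples, and every HP sample was higher (0.86 ± 0.095, adjusted p = 1.8e-05). Pdha1, the catalytic subunit of the complex itself, averaged 62.3 ± 3.34 CPM in HP and 73.7 ± 1.64 CPM in control, a small log2 fold change of -0.24 ± 0.077 (adjusted p = 0.0159). That call was lost without HP replicate 1 (adjusted p = 0.0513), HP replicate 2 (0.0578), control replicate 2 (0.0512) or control replicate 3 (0.061). Of its exonic bases, 16.1% overlap Map3k15 on the opposite strand.

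In the oxidative pentose phosphate branch, which makes NADPH, the 3 enzymes did not move together. Pgd, phosphogluconate dehydrogenase and the last of the 3, averaged 602 ± 18.6 CPM in HP and 410 ± 20.8 CPM in control and rose by 0.55 ± 0.068 (adjusted p = 3.7e-05). G6pdx, the entry enzyme, averaged 144 ± 5.77 CPM in HP and 169 ± 6.65 CPM in control and fell by 0.22 ± 0.073 (adjusted p = 0.0184). The G6pdx call was lost without HP replicate 1 (adjusted p = 0.0566), control replicate 1 (0.0879) or control replicate 2 (0.0599), and with the sample number as a block (0.0601). Pgls, the lactonase between them, had 25.3, 23.6 and 36.6 CPM in HP samples and 45.6, 52.3 and 38.9 CPM in control samples, a log2 fold change of -0.69 ± 0.16 (adjusted p = 0.00338). HP replicate 3 lay just under the lowest control sample. Pgls shares 17.3% of its 101-base stretches with Fam129c, which overlaps it on the same strand.

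The non-oxidative branch links ribose to glycolysis. Of its 3 members 2 fell and 0 rose, where 35.1% of all genes tested were lower and 33.7% higher. Tkt, transketolase, averaged 267 ± 17.0 CPM in HP and 319 ± 20.2 CPM in control (-0.26 ± 0.078, adjusted p = 0.0136). Rpia, the ribose phosphate isomerase, averaged 16.0 ± 2.63 CPM in HP and 20.3 ± 1.03 CPM in control (-0.36 ± 0.12, adjusted p = 0.0254). Both calls depended on single samples. Tkt was not called without HP replicate 2 (adjusted p = 0.0549), control replicate 1 (0.0599) or control replicate 2 (0.0672), and Rpia was not called without HP replicate 1 (0.0867), HP replicate 2 (0.0983), control replicate 2 (0.0894) or control replicate 3 (0.0706). Taldo1, transaldolase, averaged 1210 ± 115 CPM in HP and 1236 ± 44.1 CPM in control (-0.03 ± 0.076, adjusted p = 0.731). Set per kilobase of exon, Taldo1 stood highest of the placed members in both groups, at 557 ± 53.0 CPM per kilobase in HP and 569 ± 20.3 in control, followed by Pkm at 492 ± 38.1 in HP and 314 ± 15.3 in control (SD, n = 3 each). That order rests on exon models of 2171 bases for Taldo1 and 5001 bases for Pkm. In CPM without length, Pkm averaged 2460 in HP and 1572 in control, above Taldo1 in both groups.

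The phosphoglucomutases connect glycolysis with glycogen, and both fell. The row Pgm1 had 56.1, 54.1 and 47.7 CPM in HP samples and 84.1, 82.2 and 82.3 CPM in control samples, with a gap between the groups far wider than the spread within either (-0.65 ± 0.083, adjusted p = 5.09e-05). The row Pgm2 averaged 19.2 ± 0.0912 CPM in HP and 23.2 ± 0.791 CPM in control (-0.27 ± 0.090, adjusted p = 0.0189), a call lost without HP replicate 2 (adjusted p = 0.0535), control replicate 1 (0.0757) or control replicate 2 (0.0645). The symbols Pgm1 and Pgm2 have been exchanged between the mouse genes over time, so which of the pair each row measures is not known here, and neither was given a position, a length or an upstream window.

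Other genes of glucose metabolism were read from 9 lists, each set beside the background of 68.8% called, 33.7% higher and 35.1% lower. In a list of other glycolysis enzymes, their isoforms and relatives by name, 3 of 14 tested rose and 7 fell. The largest of these falls was that of Pgm2l1, a mutase paralogue that makes glucose bisphosphate, at 10.2 ± 1.31 CPM in HP and 43.3 ± 2.36 CPM in control (-2.08 ± 0.11, adjusted p = 2.11e-07). Hk3, a hexokinase best known from myeloid cells, fell to 80.6 ± 3.15 CPM in HP, against 153 ± 10.5 CPM in control (-0.93 ± 0.080), and Adpgk, an enzyme that phosphorylates glucose with ADP, fell by 0.68 ± 0.10. Hk3 thus went the opposite way to Hk1 and Hk2. Beside it, the summed macrophage markers, at 5359 to 5819 CPM in HP and 5617 to 6176 CPM in control, overlapped between the groups. Single macrophage markers went both ways, with 2 called higher and 2 lower. The part of macrophages in the fall of Hk3 was not tested. The mitochondrial phosphatase Pgam5, a relative of Pgam1 by name and fold and not a glycolysis enzyme, was 1 of the 3 that rose, by 0.85 ± 0.095.

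Among glucose and lactate transporters, 5 of 12 tested rose and 6 fell. Slc16a1, the monocarboxylate transporter MCT1 that carries lactate and pyruvate, had 74.3, 67.1 and 59.3 CPM in HP samples, against 28.8, 27.4 and 28.9 CPM in control samples (1.24 ± 0.098, adjusted p = 1.94e-06). Its relative Slc16a7 (MCT2) fell by 1.23 ± 0.19 and the intracellular transporter Slc2a8 fell by 1.38 ± 0.13. Slc2a5, the fructose transporter GLUT5, had 30, 26 and 29 counts in HP samples and 1, 0 and 1 counts in control samples. The ratio of its summed counts per scaled depth was 51.2 (exact 95% interval from 13.8 to 430, for counting error alone).

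Of genes at the entry of pyruvate into mitochondria, 4 of 12 tested rose and 2 fell. The shared dehydrogenase subunit Dld stood at 197 ± 5.05 CPM in HP and 109 ± 2.87 CPM in control (0.85 ± 0.070, adjusted p = 2.51e-06), and the complex's anchoring subunit Pdhx rose by 0.68 ± 0.086. The E1 subunit Pdhb rose by 0.41 ± 0.082 and malic enzyme Me1 by 0.40 ± 0.074. In the tricarboxylic acid cycle 5 of 20 rose and 8 fell, led by Idh2 (-1.17 ± 0.12), Fh1 (-1.01 ± 0.12), Ogdh (-0.88 ± 0.096) and Suclg2 (-0.68 ± 0.077), which encode the NADP-linked isocitrate dehydrogenase, fumarase, a subunit of oxoglutarate dehydrogenase and a subunit of succinyl-CoA ligase.

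Other pentose phosphate genes fell more often than they rose, with 1 of 7 tested higher and 5 lower. H6pd, the branch's entry enzyme in the endoplasmic reticulum, fell to 31.8 ± 3.11 CPM in HP, against 67.7 ± 3.13 CPM in control (-1.09 ± 0.094, adjusted p = 3.35e-06). The epimerase Rpe fell by 0.65 ± 0.090 and Prps2, a synthetase that turns ribose phosphate into PRPP, fell by 0.91 ± 0.10. Its paralogue Prps1 rose by 0.76 ± 0.10. Of glycogen, hexosamine and polyol genes, 6 of 15 rose and 7 fell. Muscle-type glycogen phosphorylase Pygm had 11.3, 7.90 and 7.04 CPM in HP samples and 0.799, 0.853 and 0.991 CPM in control samples (3.32 ± 0.24, adjusted p = 1.18e-06), while the brain-type isoform Pygb fell to 24.3 ± 0.751 CPM in HP, against 48.6 ± 0.413 CPM in control (-1.002 ± 0.082). Gfpt1, which opens the hexosamine pathway, rose by 0.74 ± 0.083, and sorbitol dehydrogenase Sord fell by 0.78 ± 0.074. Among gluconeogenesis and fructose genes 2 of 6 rose and 3 fell. Tkfc (-1.22 ± 0.15), G6pc3 (-0.68 ± 0.12) and the fructokinase gene Khk (-0.86 ± 0.18) fell, and the glycerol phosphate dehydrogenase Gpd1 rose by 2.15 ± 0.31, with 2.18 ± 0.516 CPM in HP and 0.478 ± 0.114 CPM in control.

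**Figure D4:**
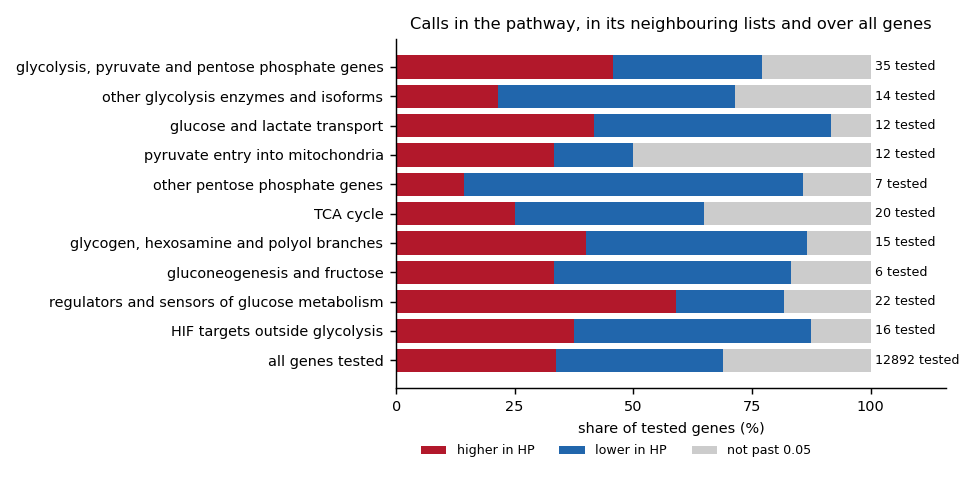
Share of tested genes called higher (red), lower (blue) or neither (grey) in the 35 tested members, in 9 neighbouring lists and over all 12892 genes. Members are 45.7% higher and 31.4% lower, all genes 33.7% higher and 35.1% lower.

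Among regulators and sensors of these pathways, 13 of 22 tested rose (59.1%, against 33.7% of all genes) and 5 fell. Myc, whose product activates many glycolysis genes, stood at 541, 529 and 512 CPM in HP samples and at 138, 133 and 121 CPM in control samples (2.02 ± 0.075, adjusted p = 3.73e-08). Atf4, a stress-response factor, averaged 1520 ± 81.4 CPM in HP and 612 ± 29.0 CPM in control (1.31 ± 0.069, adjusted p = 1.71e-07). Hif1a, which encodes the oxygen-regulated subunit of HIF-1 and is controlled mainly at the protein level, averaged 447 ± 31.5 CPM in HP and 352 ± 20.6 CPM in control and rose by 0.34 ± 0.077 (adjusted p = 0.00238), and Vhl, whose product marks HIF proteins for decay, rose by 0.79 ± 0.084. The arrestins Txnip and Arrdc4 both restrain glucose uptake and follow the glucose sensor MondoA, yet they went opposite ways, with Txnip lower (-1.09 ± 0.14, adjusted p = 4.22e-05) and Arrdc4 higher (1.47 ± 0.093, adjusted p = 4.84e-07). Of HIF targets outside glycolysis 6 of 16 rose and 8 fell. Adm, Vegfa, Ddit4 and Ero1l rose by 2.95 ± 0.10, 1.53 ± 0.11, 1.59 ± 0.12 and 1.16 ± 0.079, and their products are a vessel-relaxing peptide, the chief vessel growth factor, an mTORC1 inhibitor and an oxidase of the endoplasmic reticulum. Egln3, a HIF prolyl hydroxylase that HIF itself induces, fell by 1.36 ± 0.17 (adjusted p = 5.41e-05). Its relatives Egln1 and Egln2, read from the list of regulators, rose by 0.51 ± 0.078 and 0.46 ± 0.12. Car9, another textbook HIF-1 target, averaged 0.437 ± 0.0954 CPM in HP and 1.03 ± 0.32 CPM in control (-1.22 ± 0.37, adjusted p = 0.0125). HIF targets inside and outside glycolysis thus held genes called in each direction.

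The directions were checked under other scalings, since TMM factors were 0.9094 to 0.9457 in HP libraries and 1.0736 to 1.0828 in control libraries. With library totals alone, the median of all genes moved by -0.213 to -0.228, and 13 members were higher and 15 lower, against 24.3% and 45.7% of all genes. With upper-quartile factors the shift was -0.113, and 15 members were higher and 13 lower, against 28.1% and 40.2% of all genes. Relative to the median of all genes, the members' median stood 0.132 higher with TMM and 0.129 higher with library totals, but 0.058 higher without HP replicate 1 and 0.016 higher both without a low-count filter and with DESeq2. Under all 4 scalings 13 members were called higher and 11 lower. Each scaling called between 68.4% and 69.9% of all genes, and how many of those kept their call under all 4 was not counted. Ldha, Pfkfb3 and Pdk3 were the calls of a rise that a scaling ended, and Tpi1, Ldhb, Pfkfb2 and Taldo1 became calls of a fall with library totals, the first 2 with upper-quartile factors as well.

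**Figure D5:**
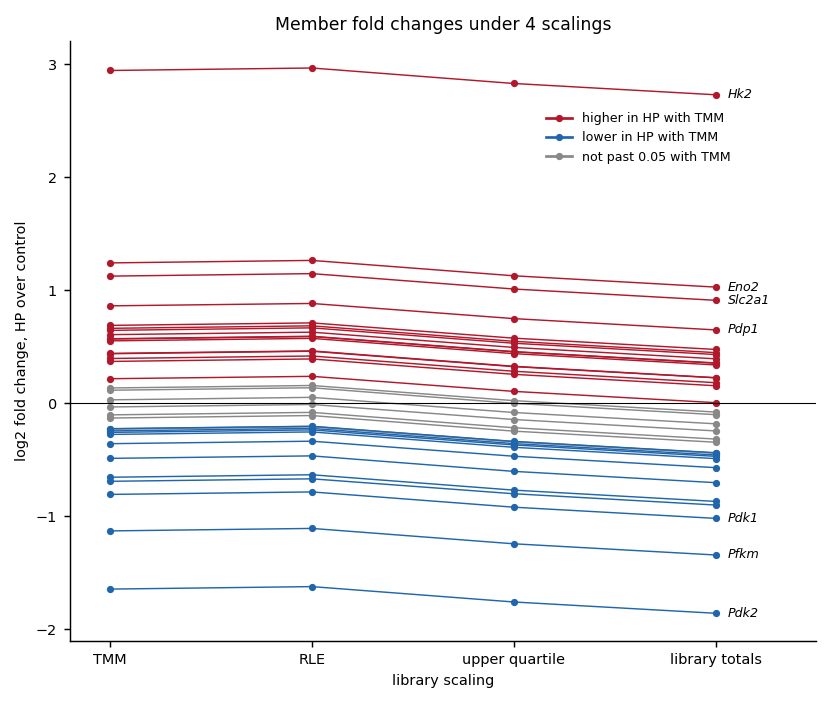
Log2 fold change, HP over control, of the 35 tested members under 4 library scalings, coloured by the call with TMM factors. The lines run in parallel and drop toward library totals, and no member called with TMM changes sign.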

How the data were processed

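RNA was measured in 6 libraries, 3 HP and 3 control, grouped by the submitters' titles. The authors deposited 1 table of expected counts a library, estimated per gene symbol and not always whole. Fractions stood in 18.22% to 21.67% of detected genes, and rows without a gene name were not found. TopHat2 2.2.1, Cufflinks 2.2.1 and the build mm10 were used, per the submitters' processing notes. Per the labels' protocols, libraries came from a stranded kit and were single reads of 101 bases. Which tool counted the reads, on which annotation and with which strand setting is not given in the sources used here, so reads of overlapping, antisense or near-identical genes cannot be told apart.

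After rounding to whole numbers, filterByExpr at a minimum count of 10 and a minimum total of 15 left 12892 genes with 99.94% of counts. HP was compared with control by edgeR 4.0.16 (R 4.3.3) with TMM factors, glmQLFit and glmQLFTest, two-sided and without covariates. The standard error is the size of the log2 fold change divided by the square root of F. No pair of libraries agreed within sampling noise (chi-square per degree of freedom within groups of at least 3.071). In data simulated over 12892 genes, 67 genes were changed 1.5-fold, 67 were changed 2-fold and 66 were changed 4-fold. Of these, 79.1%, 88.06% and 100% were called, with 2.73% of calls false. Far fewer genes changed there than the 68.8% called in the real libraries, so these rates need not hold for the calls above.

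Alternatives were DESeq2 1.42.0, limma-voom (limma 3.58.1), other scalings, filters and thresholds, a replicate block, and leaving out each sample. Exon lengths and positions came from GENCODE M21, and upstream windows from RefSeq (GRCm38.p6), matched by symbol for 32 of 36 members. The members and the lists were chosen with earlier results of these data known. Members that were called, did not overlap and changed at least 1.5-fold, and the isoforms of their families, are given in every sample; each list is named by up to 4 called genes with the smallest p. Hif1a, Txnip, Egln1, Egln2, Egln3 and Car9 were added as regulators or targets after their values were seen.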

Additional observations from a re-analysis of the deposited data

How the results depend on the processing

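Of the 27 calls among the members, 19 held in every alternative run for them, and no called member changed sign. How many of the calls over all genes held in this way was not counted. Slc2a1, Hk1, Hk2, Gpi1, Pfkfb4, Pfkp, Gapdh, Pgk1, Pgam1, Eno2, Pkm, Pdp1 and Pgd stayed higher, and Pfkl, Pfkm, Pdk1, Pdk2, Pgls and Pgm1 stayed lower. The count of lower members, 11, was 6 with a tested minimum of 1.2-fold (28.8% of all genes lower), 6 at an adjusted p of 0.01 (29.3%) and between 6 and 13 when a sample was left out. The members' median, 0.117, was 0.139 with RLE factors, 0.001 with upper-quartile factors, -0.099 with library totals, 0.076 without the 50 most abundant genes, 0.055 without a low-count filter, 0.086 with DESeq2 and between 0.046 and 0.118 when a sample was left out. DESeq2 called the same numbers, 16 higher and 11 lower, against 24.6% and 23.8% of the 17805 genes in that run. In the main fit these shares were 33.7% and 35.1% of 12892 genes. The shift with scaling follows from the factors. The median was not taken over the same members in every run. It covered 34 members without the 50 most abundant genes, which include Pkm, and 36 without a low-count filter or with DESeq2, where Aldoc was kept. What else moved the median was not tested.

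The labels do not say if the replicate numbers pair the samples. Deviations of same-numbered samples correlated at 0.129, -0.23 and -0.134, and those of differently numbered samples at -0.17 to 0.292. With 3 samples a group these values cannot decide if the samples were paired. With the sample number as a replicate block, 24 members were called, 15 higher and 9 lower (31.6% and 33.5% of all genes), and Ldha, G6pdx and Pgm2 were not. In shares of CPM without length, the difference for Hk2 was 37.17 percentage points in place of 40.03, that for Pfkl was -13.64 in place of -5.85, and no share difference changed sign. With 3 samples a group, an exact permutation test of a single gene could not go below 0.1, and genes under about 3 CPM, such as Slc2a3, or Pdk2 in HP samples, carry few counts.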
